A study of Rattus norvegicus with 9 samples.

Results

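Ion channels set the resting potential, the upstroke and the repolarization of the heart muscle cell, and calcium pumps, release channels and kinases turn that electrical cycle into contraction. The genes described here are those whose symbols mark a potassium, sodium, calcium, chloride, pacemaker, transient receptor potential (TRP), purinergic or Piezo channel, a connexin, a sodium-potassium or calcium pump subunit or a calcium/calmodulin-dependent kinase. The rule that picks them uses symbols and no measured value, but it was set with earlier results of these data known. Of the 5760 genes listed in either deposited table, 73 were members. The table of Cal and Model libraries held 60 of them among 4288 genes, the table of Cal and Con libraries held 26 among 2458 genes, and 13 were in both.

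Cardiac RNA was sequenced from 9 male Sprague Dawley rats, 3 per group. Heart failure (HF) was induced by ligating the left anterior descending coronary artery in the model group and the Cal group, so both groups carry the infarct, whereas the control group had sham surgery. The Cal group received calycosin, an isoflavone of Astragalus roots, at 80 mg/kg per day, and treatment lasted 28 days. The study asked how the HF heart differs from the sham heart and what calycosin changes in it. The labels name heart as the tissue and give neither the age of the rats nor the part of the heart that was used.

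The column headings of the tables conflict, and this sets the direction of every difference. Each table gives single-library columns and group-mean columns. For 4288 of 4288 genes of the Cal and Model table, the column named Cal among the means averages the 3 single libraries named Model, and the one named Model averages the 3 named Cal. In the other table the mean named Model averages the 3 single libraries named Cal for 2458 of 2458 genes, and its other libraries are named Con. The title of that table sets model against control, and the study counts 2458 targets of its HF model. No single library there is named Model. Which headings are right was not tested. Over 986 of 986 genes listed in both tables, the Cal libraries held identical reads. Cal, Model and Con libraries below always means the sample headings. If the mean columns are right, the Cal libraries are the model group and the Model libraries are the calycosin group. "Higher in Cal than in Model" would then read higher in untreated than in treated HF, and "higher in Cal than in Con" would read higher in HF than in sham.

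Each library had 2860826 to 3998471 reads on the genes of the Cal and Model table and 3270460 to 4659882 on those of the other, and total depth is unknown because only listed genes were analysed. Values are normalized counts, that is, reads divided by one size factor per library. Both tables list only genes to which the authors' own test gave an adjusted p under 0.05, so nearly every listed gene separates its groups, and a member not listed has no value here. Cacna1c, Pln, Casq2, Kcnq1, Kcnj2, Gja1 and Camk2d, which encode the main L-type calcium channel, phospholamban, calsequestrin, the slow delayed rectifier, the classical inward rectifier, connexin 43 and the main cardiac CaMKII, were not analysed here for that reason. In heart RNA of mixed cells, fewer cells of a type and less RNA per cell cannot be told apart. A comparison of 3 libraries with 3 cannot give a two-sided exact permutation p under 0.1.

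Potassium channels repolarize the myocyte and hold its resting potential, sodium and T-type calcium channels start the impulse, pacemaker channels carry the depolarizing current of nodal cells, and connexins pass it from cell to cell. The sarcoplasmic reticulum calcium pump Atp2a2 and release channel Ryr2 cycle calcium with each beat. In HF and after infarction, changes in these genes are known as electrical remodelling, with prolonged action potentials and slower conduction as its textbook features.

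Promoters are shown for 4 members on which the results turn. These are the connexins Gja4 and Gja5, which differed in opposite directions between Cal and Model libraries, and Kcne4 and Trpv4, the members called in both tables. Each run is the 250 bases before the annotated start of the rat gene (RefSeq, GRCr8), written 5′ to 3′ on the gene's strand. Capitals mark matches, on either strand, to any of the motifs searched. These were the TATA box with the letters TATAAA, the GC box with the letters GGGCGG and the box spelled CCAAT. The E-box was searched as CACGTG, the cAMP response element as TGACGTCA, and the GATA motif as AGATAAG.
Gja4, chr5:144920325-144920574, minus strand: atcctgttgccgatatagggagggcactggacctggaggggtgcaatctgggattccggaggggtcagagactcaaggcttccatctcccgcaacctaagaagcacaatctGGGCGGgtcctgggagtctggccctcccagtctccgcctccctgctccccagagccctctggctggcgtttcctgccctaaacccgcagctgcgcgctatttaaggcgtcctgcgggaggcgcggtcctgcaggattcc
Gja5, chr2:187290977-187291226, plus strand: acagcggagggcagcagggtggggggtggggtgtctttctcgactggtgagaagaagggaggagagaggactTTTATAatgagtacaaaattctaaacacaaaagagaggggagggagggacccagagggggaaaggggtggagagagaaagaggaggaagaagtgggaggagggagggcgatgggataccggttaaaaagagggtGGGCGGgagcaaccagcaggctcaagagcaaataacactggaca
Kcne4, chr9:87695798-87696047, plus strand: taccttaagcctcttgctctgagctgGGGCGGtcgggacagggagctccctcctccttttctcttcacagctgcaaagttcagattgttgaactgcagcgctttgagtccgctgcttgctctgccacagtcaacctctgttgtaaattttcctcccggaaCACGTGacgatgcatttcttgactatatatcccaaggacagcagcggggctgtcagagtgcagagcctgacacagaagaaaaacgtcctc
Trpv4, chr12:47598938-47599187, plus strand: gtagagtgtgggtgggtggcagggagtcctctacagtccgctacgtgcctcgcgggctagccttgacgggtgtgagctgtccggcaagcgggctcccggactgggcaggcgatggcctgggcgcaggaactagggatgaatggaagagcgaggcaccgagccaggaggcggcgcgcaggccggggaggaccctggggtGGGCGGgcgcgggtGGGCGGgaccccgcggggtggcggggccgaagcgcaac

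All 4 windows hold a GC box. The Gja5 window also holds TTTATA, which is TATAAA on the other strand, and that of Kcne4 holds an E-box. The GC content was 63.2% for Gja4, 54.8% for Gja5, 52.4% for Kcne4 and 72.8% for Trpv4, against a median of 52% over all promoters. Of the 73 members, 52 matched a promoter by symbol, and 34 of these (65.4%) held a GC box, against 58.2% of the listed genes and 32.4% of all 27457 promoters. TATA boxes were in 3 members' promoters (5.77%), in 8.28% of those of the listed genes and in 13.1% of all. The CCAAT box was in 28.8%, 34.7% and 34.3%, in the same order. The E-box, the cAMP response element and the GATA motif were each in 1 member's promoter (1.92%), against 7.71%, 2.41% and 1.77% of the listed genes and 5.79%, 1.7% and 2.46% of all. A match is a match of letters and no evidence of a bound factor.

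Between Cal and Model libraries most members were higher in Cal, by the mean columns' headings higher in the model group. Of 60 members, 36 were called higher in Cal and 11 lower, where a call needed an adjusted p under 0.05 in limma and a log2 difference beyond 1, while 13 were within that limit. Over the 4288 listed genes 60.1% were called, 28.4% higher and 31.6% lower. The median log2 difference (Cal minus Model) was 1.10 over the members and -0.52 over all listed genes. All 60 had an adjusted p under 0.05, as did 99.6% of listed genes. All 60 members also had 3 libraries of one group above the 3 of the other, compared with 98.2% of listed genes. Among the members the direction varied with the level, and all listed genes were not split in this way. Of the 8 members with a mean of at least 1000 normalized counts, 3 were higher in Cal and 5 lower, of the 23 between 100 and 1000 counts 20 were higher and 3 lower, and of the 29 below 100 counts 24 were higher and 5 lower. Rescaling moved the median of all listed genes from -0.52 to -0.10 with quantile normalization, -0.23 with median-ratio scaling and -0.33 with TMM factors. The members' calls were then 38 higher and 7 lower, 42 and 8, and 42 and 9. The sign held in all 3 scalings for 59 of 60 members, the exception being Atp1b1.

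**Figure D1:**
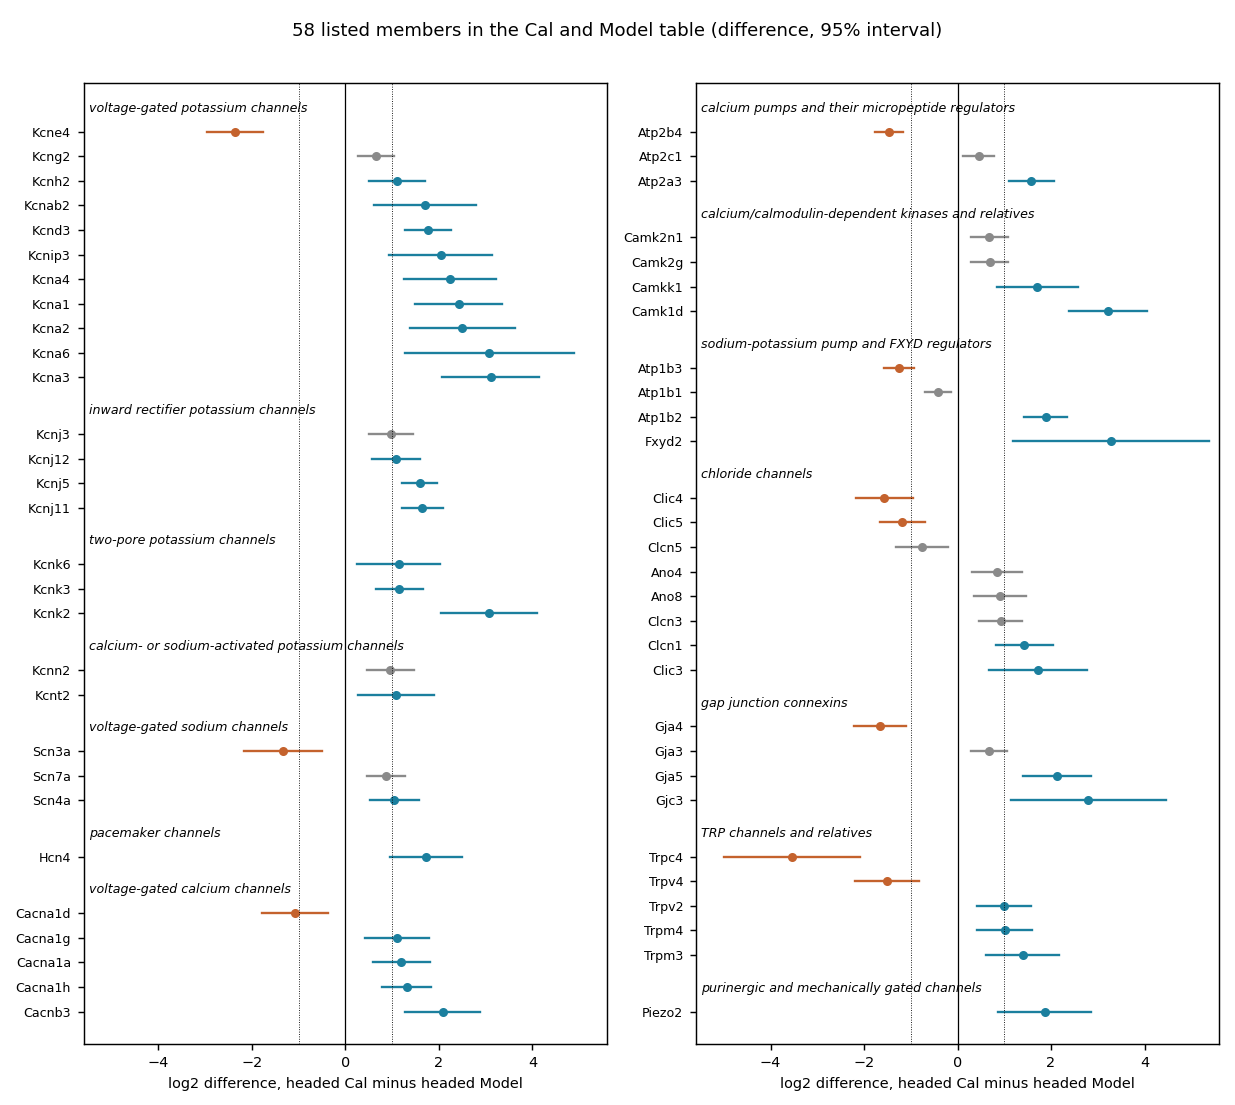
Log2 difference (Cal minus Model by sample heading, opposite under the mean columns' headings) of 58 of the 60 listed members, grouped by role, from limma on log2(normalized count + 1), with 95% intervals as bars. Blue points were called higher in Cal, orange points lower and grey points neither, and dotted lines mark a difference of 1. Blue points outnumber orange ones by 35 to 10, and the voltage-gated potassium channels hold 9 of the blue and 1 of the orange.

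Voltage-gated potassium channels and their accessory subunits formed the largest group. Of 11 listed, 9 were called higher in Cal and 1 lower, with a median log2 difference of 2.04. Kcnh2, the pore subunit of the rapid delayed rectifier, had 1187, 1133 and 1150 normalized counts in the Cal libraries and 527, 371 and 791 in the Model libraries. All Cal libraries were above all Model libraries, with a log2 difference of 1.11 (SE 0.26, limma adjusted p = 0.00541). Without the Model 2 library, the lowest, it was 0.84 and no longer beyond 1. Kcnd3, the pore subunit of the transient outward current, had 189, 229 and 197 counts in Cal and 58.3, 72.0 and 49.8 in Model. The groups lay 3.40-fold apart on average, with a log2 difference of 1.77 (SE 0.21, limma adjusted p = 0.000474). Kcng2, a modulatory subunit that forms no channel alone, was the most abundant of these genes per length, with 733 normalized counts per kb in Cal and 472 in Model. Its log2 difference of 0.65 (SE 0.17) was within the fold limit, but with quantile normalization it was 1.16.

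Kcne4, an accessory subunit known to inhibit several voltage-gated potassium channels, went the other way. It had 24.9, 34.7 and 26.5 counts in Cal and 141, 123 and 195 in Model, so it was lower in every Cal library, 5.14-fold on average. On the log2 scale it differed by -2.36 (SE 0.26, limma adjusted p = 0.000359). Kcna3, the Kv1.3 channel best known from lymphocytes and macrophages, had 11.1, 6.57 and 5.98 counts in Cal and no read in any Model library. Against a floor of 3 reads per library it was at least 2.42-fold higher in Cal. The other 6 members, Kcna1, Kcna2, Kcna4, Kcna6, Kcnab2 and Kcnip3, had means under 50 counts in both groups and were called higher in Cal with log2 differences between 1.70 and 3.08.

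Inward rectifiers were all higher in Cal, and 3 of the 4 listed were called. Kcnj11 encodes Kir6.2, the pore of the ATP-sensitive potassium channel. It had 2155, 1970 and 2005 counts in Cal and 606, 538 and 854 in Model. The groups were far apart relative to their spread, with a log2 difference of 1.64 (SE 0.19, limma adjusted p = 0.000395). Kcnj5 and Kcnj3 encode the subunits of the acetylcholine-activated potassium channel of atrial and nodal cells. Kcnj5 had 1328, 1045 and 1277 counts in Cal and 346, 445 and 420 in Model, a log2 difference of 1.59 (SE 0.16, limma adjusted p = 0.000289). For Kcnj3, at 606 ± 37.1 and 315 ± 82.4 counts (SD, n = 3), it was 0.97 (SE 0.20), just within the limit, and 1.02 without Cal 2 or 1.18 without Model 2. In the 3 other scalings Kcnj3 was beyond the limit, at 1.16 to 1.27. Kcnj12, the inward rectifier Kir2.2, had 401 ± 33.5 counts in Cal and 194 ± 54.5 in Model (SD, n = 3). Its log2 difference was 1.08 (SE 0.22) with all libraries and 0.88 without Model 2.

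All 3 listed two-pore channels, which carry background potassium current, were called higher in Cal. Kcnk3, the acid-sensitive channel TASK-1, was the most abundant potassium channel per length in this table, at 1233 normalized counts per kb in Cal and 573 in Model. It had 4819, 5212 and 4679 counts in Cal and 1855, 1883 and 3093 in Model, where the Model 3 library stood nearest to Cal. It differed by 1.15 on the log2 scale (SE 0.21, limma adjusted p = 0.00237). Kcnk2, the stretch-sensitive channel TREK-1, was low in both groups, with 27.7, 23.5 and 29.0 counts in Cal and 4.32, 2.44 and 0.958 in Model. Its log2 difference was 3.07 (SE 0.44, limma adjusted p = 0.000895), which rests on at most 4 reads in any Model library. For Kcnk6 it was 1.14 (SE 0.38), and this call was lost without Cal 1, Model 2 or Model 3, at log2 differences of 0.89, 0.99 and 0.94, and also with quantile normalization (0.94) and a pseudocount of 10 (0.99). Of the calcium- and sodium-activated channels, Kcnt2 was called higher in Cal (1.08, SE 0.35) but at 0.99 without Cal 2, 0.73 without Model 3, 0.89 with quantile normalization and 0.90 with a pseudocount of 10 it was not. Kcnn2, the small-conductance calcium-activated channel SK2, had a log2 difference of 0.96 (SE 0.22), or 1.14 without Model 3. It was also beyond the limit with median-ratio scaling (1.25) and TMM factors (1.14), but not with quantile normalization (0.93).

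Sodium channels were few. Scn4a, the skeletal muscle isoform, had 415, 437 and 366 counts in Cal and 177, 157 and 267 in Model. Its log2 difference was 1.05 (SE 0.22, limma adjusted p = 0.00379), and it was 0.99 without Cal 2, 0.98 without Model 1 and 0.89 without Model 2. Scn7a, the atypical sodium-sensing channel, had 420 ± 30.0 and 232 ± 36.3 counts (SD, n = 3), with a log2 difference of 0.87 (SE 0.17) that missed the fold limit. The 3 other scalings put Scn7a beyond the limit, at 1.01 to 1.16. Scn3a, a neuronal isoform, was called lower in Cal, with 36.9, 17.8 and 23.1 counts against 84.2, 68.3 and 46.0 in Model (log2 difference -1.34, SE 0.36, limma adjusted p = 0.00872).

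Pacemaker channels open on hyperpolarization, and of 2 listed 1 was called higher in Cal and 1 lower. Hcn4, the main isoform of the sinus node, had 246, 286 and 238 counts in Cal and 55.1, 62.2 and 132 in Model. Every Cal library was above every Model library, with a log2 difference of 1.72 (SE 0.33, limma adjusted p = 0.00261).

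All 5 listed calcium channel genes were called, 4 higher in Cal and 1 lower, though 3 of the calls did not hold in every setting. Cacna1g and Cacna1h encode the T-type channels of the conduction system and the fetal heart. Cacna1g had 512, 367 and 413 counts in Cal and 193, 135 and 301 in Model. Its log2 difference was 1.10 (SE 0.30, limma adjusted p = 0.00909), but 0.97 without Cal 1 and 0.82 without Model 2. Cacna1h had 190, 180 and 259 counts in Cal and 75.6, 74.4 and 101 in Model, a log2 difference of 1.31 (SE 0.22, limma adjusted p = 0.00171). Cacnb3, an auxiliary beta subunit, had 57.2, 71.3 and 59.8 counts in Cal and 10.8, 11 and 23.0 in Model (2.08, SE 0.35). The remaining 2, Cacna1a and Cacna1d, were at means of 22.0 to 82.0 counts, with log2 differences of 1.19 and -1.08. The call of Cacna1a was lost with quantile normalization (0.93) and with a pseudocount of 10 (0.95). Cacna1d was at -0.96 without Cal 1, -0.88 without Model 2, -0.93 with a pseudocount of 10, -0.92 with TMM factors and -0.78 with median-ratio scaling.

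**Figure D2:**
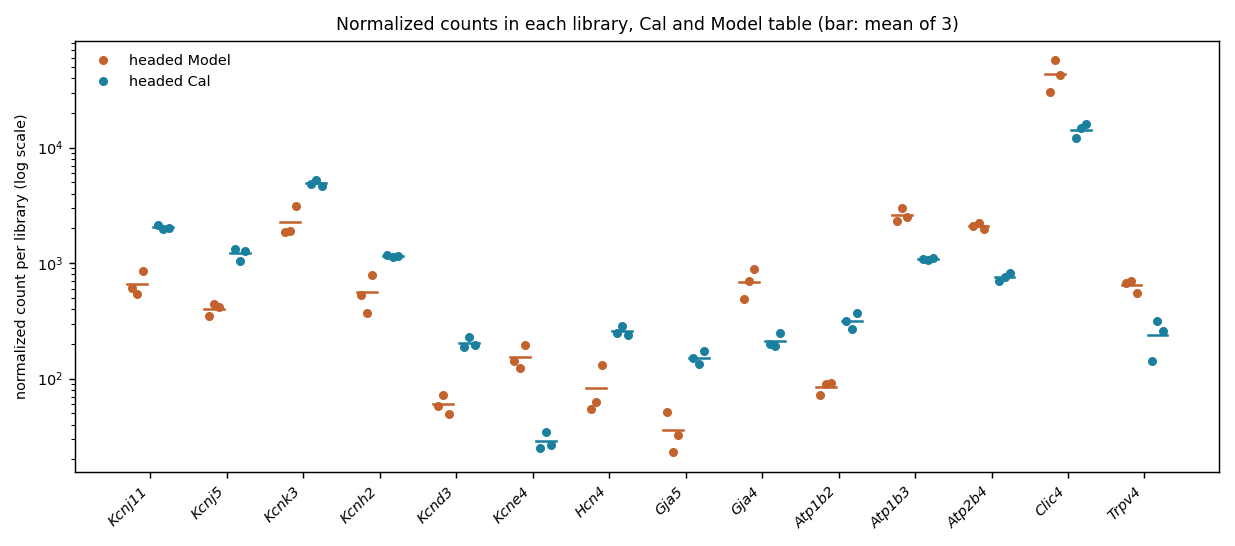
Normalized counts (log axis) of 14 members in each library headed Model (orange) and Cal (blue), with a bar at the mean of 3. The groups do not overlap for any of the 14, and Kcne4, Gja4, Atp1b3, Atp2b4, Clic4 and Trpv4 are lower in Cal, by the mean columns' headings lower in the model group.

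Calcium pumps split as well. Atp2b4, a plasma membrane calcium ATPase, had 703, 758 and 826 counts in Cal and 2098, 2210 and 1995 in Model. It was 2.76-fold lower in Cal, with little spread in either group (log2 difference -1.46, SE 0.13, limma adjusted p = 0.000195), the lowest adjusted p of any member in this table. With quantile normalization the log2 difference was -0.98. Atp2c1, the Golgi calcium and manganese pump, differed by 0.45 (SE 0.14), and Atp2a3, the reticulum pump SERCA3 of blood and endothelial cells, was called higher in Cal (1.58, SE 0.21, limma adjusted p = 0.000692). Neither Atp2a2 nor Ryr2 was listed in this table. Of the calcium/calmodulin-dependent kinases, Camk1d was higher in Cal by the widest margin, with 86.7, 85.4 and 93.9 counts against 10.8, 12.2 and 4.79 in Model. In log2 units they were 3.21 apart (SE 0.36, limma adjusted p = 0.000378). Camk2g, the gamma isoform of CaMKII, and Camk2n1, an inhibitor of that kinase, both differed by 0.68 (SE 0.17), within the fold limit. With quantile normalization Camk2g was at 1.01, beyond it. Camkk1, an upstream kinase, averaged 20.4 and 5.62 counts and was called higher in Cal (1.70, SE 0.37).

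The sodium-potassium pump was represented by its beta subunits, which fold and anchor the catalytic subunit. Atp1b1, the main cardiac one, had 3371, 3531 and 3428 counts in Cal and 4540, 4704 and 4641 in Model. Its log2 difference of -0.43 (SE 0.12) depended on the scaling, and it was 0.18 with quantile normalization. Atp1b3 had 1082, 1070 and 1099 counts in Cal and 2321, 2982 and 2489 in Model, so it was 2.38-fold lower in Cal (log2 difference -1.25, SE 0.14, limma adjusted p = 0.000359). This was -0.95 with median-ratio scaling and -0.73 with quantile normalization. Atp1b2 went the other way, with 314, 267 and 368 counts in Cal and 72.4, 90.2 and 91.1 in Model (1.89, SE 0.20, limma adjusted p = 0.000308). Fxyd2, the gamma subunit known from kidney, had 44.3, 31.9 and 29.0 counts in Cal and 2.16, 0 and 14.4 in Model, so its log2 difference of 3.28 had the largest SE of any member, 0.90. The 3 beta subunits differed in direction under the deposited scaling, and Atp1b3 stayed lower and Atp1b2 higher in Cal under all 3 others.

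Chloride channels held the most abundant member of this table. Clic4, an intracellular chloride channel protein found in endothelium and many other cells, reached 6585 normalized counts per kb in Model and 2170 in Cal. Its counts were 12017, 14710 and 16047 in Cal and 30567, 57014 and 42258 in Model, the latter with a wide spread. It was 2.96-fold lower in Cal (log2 difference -1.57, SE 0.26, limma adjusted p = 0.00154). With quantile normalization the log2 difference was -0.48 (adjusted p = 0.0919). Clic5 followed with 4339, 5653 and 4468 counts in Cal and 11098, 13361 and 8632 in Model (-1.18, SE 0.20), which was -0.44 (limma adjusted p = 0.0855) with quantile normalization. Clcn1, the skeletal muscle chloride channel, was called higher in Cal, at 66.1 ± 12.3 counts against 24.0 ± 3.97 (SD, n = 3). Ano8, an anoctamin that tethers membranes, differed by 0.90 (SE 0.24) and by 1.17 without Model 3. In the 3 other scalings Ano8 was beyond the fold limit, at 1.05 to 1.20. The other 4, Ano4, Clcn3, Clcn5 and Clic3, ranged from -0.76 to 1.72.

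Connexins of vascular and conducting cells moved apart. Gja5 encodes connexin 40 of the atria, the His-Purkinje system and arterial endothelium, and Gja4 encodes connexin 37 of endothelium. Gja5 had 149, 134 and 173 counts in Cal and 51.8, 23.2 and 32.6 in Model. Cal was 4.36-fold above Model on average (log2 difference 2.12, SE 0.31, limma adjusted p = 0.000983). Gja4 had 199, 193 and 247 counts in Cal and 490, 698 and 892 in Model. It was 3.17-fold lower in Cal, with a log2 difference of -1.66 (SE 0.24, limma adjusted p = 0.000882). Per kb of length Gja4 was above Gja5 in both groups, at 126 and 26.5 normalized counts in Cal and 412 and 6.24 in Model. Gja3, connexin 46, differed by 0.67 (SE 0.17), and Gjc3, a glial connexin, had 2 reads in all Model libraries together and at most 16 in a Cal library.

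TRP channels, which admit calcium and sodium on stretch, lipids or heat, were called 4 higher and 2 lower in Cal. Trpv4, an osmotically and mechanically gated channel of endothelium and fibroblasts, had 141, 313 and 256 counts in Cal and 678, 706 and 550 in Model. It was 2.85-fold lower in Cal, and the Cal libraries varied more than the Model libraries (log2 difference -1.51, SE 0.29, limma adjusted p = 0.00266). Trpc4, a receptor-operated channel, had at most 3 reads in a Cal library and 28.4 ± 11.3 counts in Model (SD, n = 3). Trpm4, a calcium-activated cation channel of the conduction system, and Trpv2 were both called at a log2 difference of 1.00 (SE 0.25). These calls stood at the limit. Trpm4 was below it without Cal 3, Model 1 or Model 2 (0.81 to 0.97), with a pseudocount of 10 (0.96) and by edgeR and DESeq2 (both 0.95). Trpv2 was below it without Cal 1, Cal 3, Model 2 or Model 3 (0.91 to 0.98), with a pseudocount of 10 (0.83) and with quantile normalization (0.77). Trpm3 averaged 46.2 counts in Cal and 16.9 in Model, a log2 difference of 1.39 (SE 0.34). Piezo2, a touch-sensing channel, had 20.2 ± 8.20 counts in Cal and 4.62 ± 1.27 in Model (SD, n = 3), a log2 difference of 1.86 (SE 0.43).

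Other genes of calcium signalling and channel regulation were counted from lists picked by symbol. Of 62 calcium handling partners 22 were listed, and 10 were called higher in Cal and 4 lower. That is 63.6% called, near the 60.1% of all listed genes. Their median was 0.86, against -0.52 over all listed genes. Nfatc2 and Nfatc1, calcineurin-dependent transcription factors, were higher in Cal by 2.45 and 1.91 on the log2 scale (limma adjusted p = 0.000552 and 0.000256). Rcan1, an inhibitor of calcineurin that is itself induced by it, was at 2334 ± 645 counts in Cal and 17433 ± 4454 in Model (SD, n = 3), a difference of -2.90. Tmem38b, a counter-ion channel of the reticulum, was lower in Cal by -1.77, and Stim1, the store calcium sensor, higher by 1.11. Of 32 channel anchoring and transcription partners 10 were listed, with 4 called higher and 1 lower (50% called). Nkx2-5, Irx4, Gata4 and Akap6 were the 4, with log2 differences of 1.52, 1.88, 1.17 and 1.20, and Hand2 was lower at -1.23.

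Markers of other cells differed between the same libraries, whose group names the mean columns reverse. For comparison, 28.4% of all listed genes were called higher in Cal and 31.6% lower. Of 12 endothelial markers 9 were listed, all with positive differences, and 5 were called higher in Cal. Their summed normalized counts were 15513 to 18229 in Cal and 6685 to 8566 in Model. Gja5, Gja4, Clic4, Trpv4 and Atp2a3 are known in endothelium. Of these Gja5 and Atp2a3 were higher in Cal, and Gja4, Clic4 and Trpv4 were lower. Of 10 neutrophil markers 8 were listed and all 8 were called lower in Cal, at summed counts of 82.1 to 249 against 1023 to 1094. Of 12 macrophage and monocyte markers 9 were listed, 5 called higher and 2 lower in Cal, at 8754 to 9756 against 3166 to 4879. Smooth muscle and pericyte markers (4 of 10 listed) had 1 called higher, fibroblast markers (4 of 10) 2 higher, neuron and Schwann cell markers (5 of 10) 3 higher and 2 lower, and 1 lymphocyte marker of 12 was lower. Both listed atrial markers of 9 are Nppa, called lower in Cal, and the member Kcnj3. Of 9 conduction markers 4 were listed, with 3 called higher in Cal (the members Hcn4, Cacna1g and Gja5) and 1 lower. None of 15 cardiomyocyte or 11 skeletal muscle markers was listed, and none of the listed markers was at 0 in all libraries. The part of these cell types in the members' differences was not tested.

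Between Cal and Con libraries the members' differences were smaller. By the mean columns' headings this comparison is the model group against sham. Of 26 members, 2 were called higher in Cal and 4 lower, while 29.0% of the 2458 listed genes were called, 18.0% higher and 10.9% lower. All 26 had an adjusted p under 0.05, as did 99.8% of listed genes. Positive differences were found for 19 members and negative ones for 7, and the median was 0.41 over the members and 0.37 over all listed genes. Rescaling moved that overall median to -0.04 with quantile normalization, 0.09 with median-ratio scaling and 0.14 with TMM factors. The members' calls were then 0 higher and 4 lower, 1 and 5, and 1 and 5. Only 10 of 26 members kept both their sign and an adjusted p under 0.05 in all 3 scalings, and of these Kcna5, Trpv4 and Clic4 were higher in Cal, while Kcnj15, Kcnj8, P2rx7, Kcne4, Kcnk2 and Scn7a were among those lower. The small positive differences below are given with that limit. The Con 1 library lay nearest to the Cal mean in 22 of 26 members (84.6%), against 47.3% of all listed genes.

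**Figure D3:**
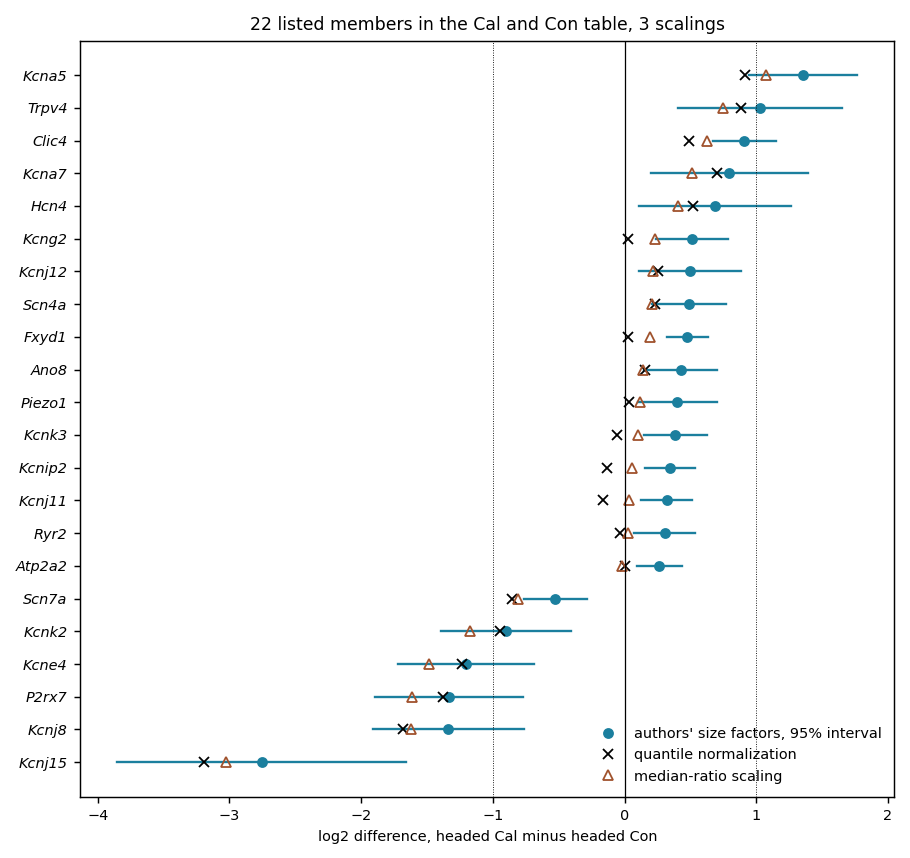
Log2 difference (Cal minus Con by sample heading, model minus sham by the mean columns' headings) of 22 of the 26 listed members. Circles with 95% intervals use the authors' size factors, crosses quantile normalization and triangles median-ratio scaling, and dotted lines mark a difference of 1. The crosses and triangles of most members with small positive differences lie near 0, while Kcnj15, Kcnj8, P2rx7 and Kcne4 stay below -1 throughout.

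The calcium cycling genes were the most abundant members. Atp2a2 had 39051 normalized counts per kb in Cal and 32560 in Con, and Ryr2 926 and 753. The counts of Atp2a2 were 243756, 245396 and 223257 in Cal and 215407, 182668 and 195909 in Con. Cal was above Con by 0.26 on the log2 scale (SE 0.07, limma adjusted p = 0.00949), but by -0.02 (adjusted p = 0.797) with median-ratio scaling. Ryr2 had 25352, 27829 and 26808 counts in Cal and 25280, 19333 and 20436 in Con, where Con 1 came close to Cal 1. Its log2 difference was 0.31 (SE 0.10, limma adjusted p = 0.0165), and -0.03 (adjusted p = 0.622) with quantile normalization. Ryr2 is also 1 of the 6 listed cardiomyocyte markers of 15, none of which was called and all of which had positive differences, at summed counts of 480850 to 489570 in Cal and 353080 to 437260 in Con.

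Fxyd1, the pump regulator phospholemman, had 2723, 2723 and 2684 counts in Cal and 1960, 1947 and 1937 in Con. The groups did not overlap, with a log2 difference of 0.48 (SE 0.07, limma adjusted p = 0.000595). With quantile normalization its difference was 0.03 (adjusted p = 0.721). Among sodium channels, the skeletal muscle form Scn4a differed by 0.49 (SE 0.12). Scn7a went the other way, with 508, 444 and 458 counts in Cal and 627, 690 and 712 in Con (-0.52, SE 0.10, limma adjusted p = 0.0027).

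Kcna5 was the member furthest above its Con level. It encodes Kv1.5, an ultra-rapid delayed rectifier, and is the only listed gene of the 9 picked as atrial markers. It had 1563, 2333 and 1931 counts in Cal and 635, 935 and 705 in Con, 2.56-fold apart on average (log2 difference 1.36, SE 0.18, limma adjusted p = 0.000426). With quantile normalization it was 0.92 and within the fold limit. The other voltage-gated members with positive differences were Kcng2 (0.51, SE 0.12), Kcna7 (0.80, SE 0.26) and Kcnip2, an accessory subunit of the transient outward current (0.34, SE 0.08). With quantile normalization Kcnip2 was at -0.14 (limma adjusted p = 0.211). Kcne4 was lower in Cal here too, with 27.9, 38.9 and 29.5 counts against 76.4, 83.5 and 64.8 in Con (-1.20, SE 0.23, limma adjusted p = 0.0021). The Cal libraries are shared by the 2 comparisons, so the direction of Kcne4 in both is not independent.

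The inward rectifiers divided by channel. Kcnj15, the pH-sensitive rectifier Kir4.2, had 24.8, 5.26 and 8.57 counts in Cal and 82.0, 74.6 and 74.9 in Con. It had the lowest difference of any member, at -2.76 (SE 0.48, limma adjusted p = 0.00156). Kcnj8 encodes Kir6.1, the pore of the vascular ATP-sensitive channel, and had 499, 242 and 379 counts in Cal and 741, 957 and 1048 in Con (-1.34, SE 0.25, limma adjusted p = 0.00213). Kcnj8 is also on the smooth muscle and pericyte list, of which 6 of 10 were listed and 5 of those had negative differences. Kcnj8 itself was the 1 called, and the other 5 listed markers were not. Kcnj11 and Kcnj12 differed by 0.32 (SE 0.08) and 0.50 (SE 0.17). The former was -0.16 (adjusted p = 0.138) with quantile normalization, and the latter had a limma adjusted p of 0.0652 without Cal 3. Among the two-pore channels Kcnk3 differed by 0.38 (SE 0.10), and by -0.06 (adjusted p = 0.570) with quantile normalization, and Kcnk2 by -0.90 (SE 0.22). With median-ratio scaling Kcnk2 was at -1.18, beyond the fold limit.

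P2rx7, the ATP-gated channel of macrophages that drives inflammasome activation, had 64.0, 35.8 and 58.1 counts in Cal and 114, 138 and 140 in Con. It was called lower in Cal (-1.33, SE 0.25, limma adjusted p = 0.00198). Of 12 macrophage and monocyte markers 3 were listed in this table, Ccr2, Cd14 and Mrc1, with 1 called higher and 1 lower. Piezo1, a stretch-gated channel of endothelium and fibroblasts, had 744, 1007 and 987 counts in Cal and 703, 697 and 655 in Con (0.40, SE 0.13, limma adjusted p = 0.0154). Its adjusted p was 0.0542 without Cal 2, 0.0571 without Cal 3 and 0.0533 without Con 3.

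Trpv4 was called higher in Cal, with 158, 350 and 286 counts against 125, 131 and 112 in Con (1.03, SE 0.27, limma adjusted p = 0.00763). The call was at the fold limit and was lost without Cal 2 (0.79), Cal 3 (0.94) or Con 3 (0.97), with a pseudocount of 10 (0.98) and in all 3 other scalings (0.75 to 0.89). Clic4 had 13440, 16493 and 17891 counts in Cal and 8851, 8147 and 8304 in Con. Its difference of 0.91 (SE 0.10, limma adjusted p = 0.000217) was within the limit and reached 1.03 without Cal 1. Ano8 was higher in Cal by 0.42 (SE 0.12).

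Hcn4 was the only member whose groups overlapped, with 275, 321 and 266 counts in Cal and 272, 135 and 153 in Con. Its log2 difference was 0.69 (SE 0.25, limma adjusted p = 0.0251, exact permutation p = 0.2). The adjusted p was 0.0730 without Cal 2, 0.0896 without Con 2 and 0.0857 without Con 3. The other 25 members did not overlap, compared with 97.4% of all listed genes. Tbx3 and Irx3, transcription factors of the conduction system and the other listed conduction markers, had positive differences within the limit.

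Cell markers differed here as well. For comparison, 18.0% of all listed genes were called higher in Cal and 10.9% lower. Of 12 endothelial markers 9 were listed, with 1 called higher in Cal and 2 lower, at summed counts of 16563 to 18232 in Cal and 22629 to 27055 in Con. All 4 listed fibroblast markers of 10 had negative differences, 1 of them called, and both listed neutrophil markers of 10, S100a8 and S100a9, were called higher in Cal at 48.5 to 183 against 13 to 28.5 counts. The 1 listed neuron marker, Stmn2, was not called, and no lymphocyte or skeletal muscle marker was listed. Of 62 calcium handling partners 14 were listed, 2 called higher and 1 lower (21.4% called, against 29.0% of all listed genes). Gem, a small GTPase that restrains L-type calcium channels, was at 1313 ± 256 counts in Cal and 111 ± 22.2 in Con (SD, n = 3), a log2 difference of 3.56 (limma adjusted p = 2.93e-06). The related Rem1 was lower at -1.06, and the phosphodiesterase Pde4b higher at 1.32. Of 32 channel partners 11 were listed, and 1 (9.09%), the anchoring protein Akap5, was called, lower at -2.91. The part of these cell types in the members' differences was not tested.

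The 13 members in both tables allow all 3 groups to be placed on one scale. The Con libraries were multiplied by 0.894, the ratio of the size factors of the shared Cal libraries, and no test was made across the tables. In 7 members the order was Model, Con, Cal from low to high, in 3 it was Model, Cal, Con, in 2 it was Con, Cal, Model, and in 1 it was Cal, Con, Model. By the mean columns' headings Cal stands for untreated HF, Model for calycosin-treated HF and Con for sham.

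**Figure D4:**
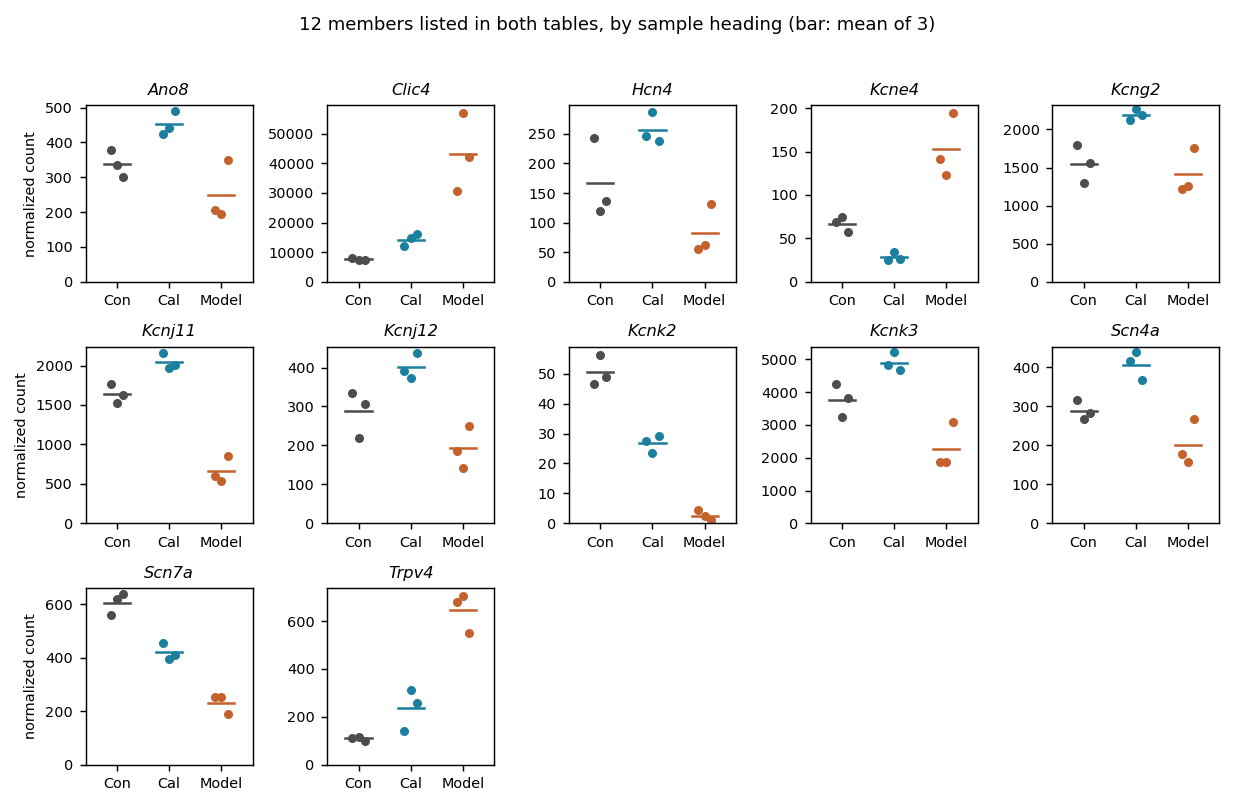
Normalized counts of 12 of the 13 members listed in both tables, in each library headed Con, Cal and Model, with Con set on the scale of the Cal and Model table and a bar at the mean of 3 (by the mean columns' headings sham, untreated and calycosin-treated HF). Kcnj11, Kcnk3 and the other members ordered Model, Con, Cal have their highest mean in Cal under the deposited scaling, but none of these 7 had an adjusted p under 0.05 between Cal and Con in the 3 other scalings. Kcnk2 and Scn7a step down from Con to Model, and Clic4 and Trpv4 step up.

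Under the deposited scaling the members with the highest mean in Cal were Kcnj11, Kcnk3, Kcnj12, Kcng2, Hcn4, Scn4a and Ano8. Their place above Con depended on that scaling. In the 3 other scalings none of the 7 had an adjusted p under 0.05 between Cal and Con, with log2 differences of -0.16 to 0.52, and Kcnj11 and Kcnk3 were below 0 with quantile normalization. Kcnj11 averaged 1640 ± 120 in Con, 2043 ± 98.1 in Cal and 666 ± 166 in Model (SD, n = 3). Kcnk3 averaged 3776 ± 502, 4903 ± 276 and 2277 ± 707. For these 2 the Con and Model ranges were apart, while for Kcnj12, Kcng2, Hcn4, Scn4a and Ano8 they overlapped, so Con and Model are not ordered beyond their spread. Hcn4, for example, had 243, 120 and 137 counts in Con and 55.1, 62.2 and 132 in Model.

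Kcnk2 and Scn7a were among those highest in Con. Kcnk2 averaged 50.6 ± 5.0 in Con, 26.7 ± 2.90 in Cal and 2.57 ± 1.68 in Model, and Scn7a averaged 605 ± 39.3, 420 ± 30.0 and 232 ± 36.3 (SD, n = 3 each). Clic4 and Trpv4 rose in the reverse order. Clic4 averaged 7543 ± 330, 14258 ± 2052 and 43280 ± 13253, and Trpv4 averaged 110 ± 8.36, 237 ± 87.4 and 645 ± 83.2. Kcne4 was the one member lowest in Cal, at 67.0 ± 8.45 in Con, 28.7 ± 5.28 in Cal and 153 ± 37.1 in Model, with no overlap between any pair of groups.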

How the data were processed

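The 2 deposited tables were read as the authors left them. Each sample column holds a normalized signal, the read count of a gene over a size factor of its library that the authors set separately for each table, and 100% of values were whole reads (tolerance 0.01) after multiplying by that factor. Size factors ranged from 0.820 to 1.17 and from 0.950 to 1.07. The authors also deposited group means, fold changes, p-values and adjusted p-values from their DESeq2 fit, which were not used beyond checking the listing limit of 0.05. Per the labels, the processing notes name Bowtie 0.12.2 and the mouse builds mm8 and mm9, whereas the study's methods name a rat reference, and the identifiers are mouse Ensembl genes. Near-identical paralogs could share reads, and no table coordinate is printed because no build is named in the tables.

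Differences come from limma 3.58.1 in R 4.3.3 (trended prior variance) on log2(normalized count + 1), which understates low genes, within each table, with Benjamini-Hochberg adjustment over all listed genes. The test was planned for normalized values, and edgeR 4.0.16 and DESeq2 1.42.0 on recovered reads were alternatives. Since these genes had passed the authors' test, the p-values are not independent evidence. Exact permutation tests were two-sided, run with scipy 1.17.1. The limma script was tested on simulated data. Replicates are separate animals by the study's methods, no 2 libraries were duplicates (chi-square per degree of freedom of 10.9 or more), no batch is given, and 0 columns belonged to other samples.

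The members and lists were chosen with earlier results of these data known. Named members are those in both tables, the 8 largest rises and 8 largest falls per table among called members averaging 50 or more in their higher group, a list of well-known cardiac channels, and the most abundant members of each role. Members and partner genes outside this rule, such as Kcna7, Atp2a3, Cacna1d, Trpc4, Gjc3, Fxyd2 and Gem, were named after their values were seen. A few members are not reported here by name, though the counts over all members include them.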

Additional observations from a re-analysis of the deposited data

How the results depend on the processing

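Between Cal and Model libraries 37 to 51 members were called over all settings with a fold limit, the lowest count with a pseudocount of 10, and 60 without one. Leaving out each library in turn gave 41 to 46. Between Cal and Con libraries 4 to 7 were called, 5 to 7 with a library left out, and 26 without a fold limit. Atp1b1 changed direction between Cal and Model with quantile normalization (0.18). Between Cal and Con, Atp2a2 did so with median-ratio scaling (-0.020), and Kcnip2 (-0.14), Kcnj11 (-0.16), Kcnk3 (-0.059) and Ryr2 (-0.032) with quantile normalization, where Atp2a2 is at 0 because it holds the same rank in every library. These scalings set the libraries on the listed genes alone, and whether they or the deposited factors are nearer the truth was not tested. Over 15 alternatives each, less those that drop a low gene, named members were followed for direction and an adjusted p under 0.05. The 42 of the first table kept both in 618 of 629 cases, and the 25 of the second in 323 of 375. In 47 cases of the second the direction held with the adjusted p at or above 0.05. In 5 the direction reversed, with adjusted p of 0.138 to 0.797. Calls, which also need a log2 difference beyond 1, changed more often in the first table. Of its 32 called named members 13 lost the call in at least 1 setting (36 cases), and 6 of its 10 uncalled ones gained one (17 cases). Between Cal and Con, 2 of 6 lost it (8 cases) and 2 of 19 gained one (3 cases). The replicate numbers belong to different animals and do not pair the libraries (correlations of -0.12 to 0.11 and -0.14 to -0.023), and with the replicate number as a block 47 and 6 members were called. Full library depth is unknown, and members under about 10 reads, such as Kcna3 and Trpc4, carry wide counting error.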
